A study of Mus musculus with 8 samples.

Results

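The MERVL and MT2 repeat types were 8 rows of a table of 38971 entries, of which 1038 were repeat types. They were found by name: every row whose name starts with MERVL, or with MT2 followed by _, A, B or C. The 8 were MERVL-int, MERVL_2A-int, MT2_Mm, MT2A, MT2B, MT2B1, MT2B2 and MT2C_Mm, and each value sums reads over all genomic copies of a type. The table came from 4sUDRB-seq of male mouse embryonic stem cells of a 129 strain that carry conditional knockout alleles of Ythdc1 and were grown without feeder cells in serum and LIF. In this assay the drug DRB holds RNA polymerase II near promoters, it is washed away, and RNA made afterwards is tagged with 4-thiouridine (4sU) and purified. All cells received DRB at 100 μM during 3 h and then 1 mM 4sU. The 4 groups of 2 libraries were 4-hydroxytamoxifen (4OHT, 1 μg/ml during 4 days) with 8 min of label, DMSO with 8 min of label, 4OHT with 0 min and DMSO with 0 min. 4OHT starts deletion of the conditional alleles in inducible lines, and the DMSO cells carry the same alleles. The titles give cell line number 1 to the samples of 0 min and number 2 to those of 8 min, whereas the table's columns carry numbers 1 and 2 at both times, so columns were assigned to groups only, and label time and cell line cannot be told apart. A MERVL::tdTomato reporter is named among the engineered lines of the study, and the genotype given for these samples is Ythdc1 conditional knockout alone. Nothing says that the libraries of a group came from separate cultures, so p-values measure the spread between these libraries only.

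MERVL is an endogenous retrovirus of the mouse genome, and its name refers to the leucine transfer RNA that primes its reverse transcription. MERVL-int denotes the internal part of the element, which encodes gag and pol proteins, and MT2_Mm is the long terminal repeat (LTR) that flanks it and holds its promoter. Full elements and lone MT2_Mm copies are transcribed in the 2-cell mouse embryo and in the rare cultured stem cells that pass through a 2-cell-like state, where the factor Dux binds them and nearby genes use them as promoters. MT2A, MT2B, MT2B1, MT2B2 and MT2C_Mm are related, older LTR types, and MERVL_2A-int is a related internal part. YTHDC1 is a nuclear protein that binds N6-methyladenosine in RNA.

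No consensus of the repeat types was used here, so the sequences shown are start regions of genes, from RefSeq (GRCm38.p6). They were chosen for likeness to the start of Gm4340 and not for a link of each gene to the 2-cell stage. Gm4340, a gene of the 2-cell stage, was picked because it was known to be high with 4OHT in these data. Each window runs from 250 bases before an annotated start to 50 bases after it, 5′ to 3′. Of 32851 windows, 26 shared at least 20 runs of 20 bases with the Gm4340 window, and the least alike of them shared 24, against 16 for the closest window left out. The capitals mark a run of 28 bases that is the same in the 4 windows shown and ends 19 to 25 bases before the start.
Gm4340 (chr10:104193792-104194091, plus strand): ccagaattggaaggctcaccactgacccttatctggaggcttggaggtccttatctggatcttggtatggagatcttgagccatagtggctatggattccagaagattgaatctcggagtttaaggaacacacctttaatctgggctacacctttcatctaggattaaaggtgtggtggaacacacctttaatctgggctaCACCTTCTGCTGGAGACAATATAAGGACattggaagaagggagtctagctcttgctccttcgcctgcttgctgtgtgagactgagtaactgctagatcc
Pemt (chr11:60040139-60040438, minus strand): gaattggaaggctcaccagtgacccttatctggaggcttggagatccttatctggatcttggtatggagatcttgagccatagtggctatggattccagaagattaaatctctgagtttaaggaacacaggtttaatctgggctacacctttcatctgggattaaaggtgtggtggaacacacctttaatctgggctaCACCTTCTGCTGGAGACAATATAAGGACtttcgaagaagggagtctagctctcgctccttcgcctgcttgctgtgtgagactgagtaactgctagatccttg
Sp110 (chr1:85603842-85604141, minus strand): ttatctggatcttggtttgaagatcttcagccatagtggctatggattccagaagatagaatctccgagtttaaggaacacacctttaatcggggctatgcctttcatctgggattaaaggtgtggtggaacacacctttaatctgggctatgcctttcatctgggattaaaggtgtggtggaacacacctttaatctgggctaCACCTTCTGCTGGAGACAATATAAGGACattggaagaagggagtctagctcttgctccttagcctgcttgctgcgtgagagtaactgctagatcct
Gm12724 (chr4:106236872-106237171, plus strand): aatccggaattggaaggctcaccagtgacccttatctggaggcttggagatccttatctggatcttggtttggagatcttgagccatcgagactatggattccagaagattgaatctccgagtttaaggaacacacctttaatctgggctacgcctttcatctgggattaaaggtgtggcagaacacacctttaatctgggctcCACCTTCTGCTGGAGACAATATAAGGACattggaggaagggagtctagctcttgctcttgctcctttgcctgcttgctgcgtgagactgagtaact
The sources used here do not annotate this stretch as a repeat type. The letters TATAAGG, searched on both strands and part of the capitals, were in 714 of all windows (2.17%) and in 26 of the 26. GATTNAATC, a pair of homeodomain-type sites, was in 88 windows (0.268%) and in 23 of the 26, among them those of Gm4340, Pemt and Gm12724. The windows were chosen for likeness to each other, so their shared letters follow from the choice.

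The libraries of 8 min held 93.1 to 134 M reads (M, mega) and those of 0 min 46.3 to 61.4 M. Of these reads, repeat types made up 30.6% to 31.3% in the libraries of 8 min and 18.7% to 24.6% in those of 0 min. Values are the deposited normalized values, and they were higher with 4OHT at 8 min across the table: the median log2 fold change was 1.43 over 20657 tested genes and 1.42 over 949 tested repeat types. Ythdc1, the targeted gene, had values of 2696 and 5168 with 4OHT, against 1409 and 2708 with DMSO, at 8 min. At 0 min it had 129 and 412 with 4OHT, against 133 and 185 with DMSO. Its log2 fold change at 8 min was 0.93 (adjusted p = 0.174, limma) and -0.53 when the 4 libraries of 8 min were scaled to their median gene (adjusted p = 0.000918). Reads over the whole gene do not show whether the floxed part is gone. All 8 embryonic stem cell markers (Pou5f1 and Nanog among them) were above 1 in every library. Their summed value was 7330 and 11700 with 4OHT against 3320 and 4820 with DMSO at 8 min, and 3510 and 6090 against 3600 and 4360 at 0 min. Summed values were 22.8 to 100 for 7 fibroblast markers, 25.1 to 197 for 6 primitive endoderm markers and 20.6 to 153 for 6 trophoblast markers. Of these, 2 fibroblast, 3 primitive endoderm and 2 trophoblast markers were above 1 in every library. Dcn, Lum, Postn, Sox17, Sox7 and Elf5 were at 0 in at least 1 library. Others were higher, with Pdgfra at 41.0, Dab2 at 58.1 and Tfap2c at 66.2 in 4OHT number 2 of 8 min. The 4OHT library number 2 of 0 min stood apart from number 1 in all 8 MERVL and MT2 types, so 0 min results are given with and without it.

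At 8 min, MERVL-int and its LTR MT2_Mm were both higher with 4OHT than with DMSO, and MERVL-int had the largest fold change of all 949 tested repeat types. MERVL-int had values of 14555 and 21695 with 4OHT, against 2248 and 3798 with DMSO, from at least 164432 reads with 4OHT and 56801 with DMSO. Its mean was 18125 ± 5049 with 4OHT and 3023 ± 1096 with DMSO (SD, n = 2 each). Both 4OHT libraries lay above both DMSO libraries, while deposited values at 8 min were higher with 4OHT across the table. The log2 fold change, on the log2(value + 1) scale, was 2.60 (SE 0.76), with an adjusted p of 0.00634 in limma fitted over 21652 entries. MT2_Mm had values of 2160 and 3425 with 4OHT, against 572.1 and 918.3 with DMSO. Its log2 fold change was 1.91 (SE 0.64, adjusted p = 0.0148 by limma), at place 23 of 949. Both calls depended on single libraries. Without 4OHT number 2 of 8 min, MERVL-int came to 2.32 (adjusted p = 0.195) and MT2_Mm to 1.57 (adjusted p = 0.248), and without DMSO number 1 of 8 min they came to 2.23 (adjusted p = 0.234) and 1.57 (adjusted p = 0.267).

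The 6 other types were close to the median repeat type. MERVL_2A-int, the second internal part, had values of 4760 and 7399 with 4OHT, against 1638 and 2741 with DMSO. MT2A had 5125 and 8244 with 4OHT, against 1963 and 3265 with DMSO. MT2B, the LTR type with the highest values, had 15932 and 24503 with 4OHT, against 5649 and 9487 with DMSO. Both 4OHT libraries lay above both DMSO libraries for these as for every one of the 8 types. Over repeat types the median fold of 4OHT over DMSO was 2.74 for number 1 and 2.65 for number 2. How many other repeat types had this order was not counted, so it is no trait of the 8. MT2B1 had 5167 and 8174 with 4OHT, against 1933 and 3132 with DMSO. MT2B2 had 4994 and 7828 with 4OHT, against 1753 and 2893 with DMSO. MT2C_Mm had 2090 and 3300 with 4OHT, against 767.1 and 1261 with DMSO. The 6 log2 fold changes lay between 1.36 and 1.49, around the 1.42 of the median repeat type, and turned negative for MT2A, MT2B, MT2B1 and MT2C_Mm once the libraries of 8 min were scaled to their median gene. Of them MT2C_Mm passed the threshold (1.42, adjusted p = 0.0489 by limma), and the other adjusted p-values were 0.0553 to 0.0981. In all, 3 of 8 types were called higher and 0 lower, while 52.5% of repeat types and 56.6% of genes were called higher. Which types passed depended on single libraries, for the 8 as for repeat types at large. Without 4OHT number 2 of 8 min the 6 log2 fold changes lay between 1.02 and 1.17, beside 1.09 for the median repeat type. Without DMSO number 1 of 8 min they lay between 0.99 and 1.11, beside 1.07. Adjusted over repeat types alone, limma called 0 of 949, with 698 at an unadjusted p under 0.05 and adjusted p = 0.0529 for MERVL-int. Values of different types share no length scale here, so their order says nothing of which type is transcribed more.

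**Figure D1:**
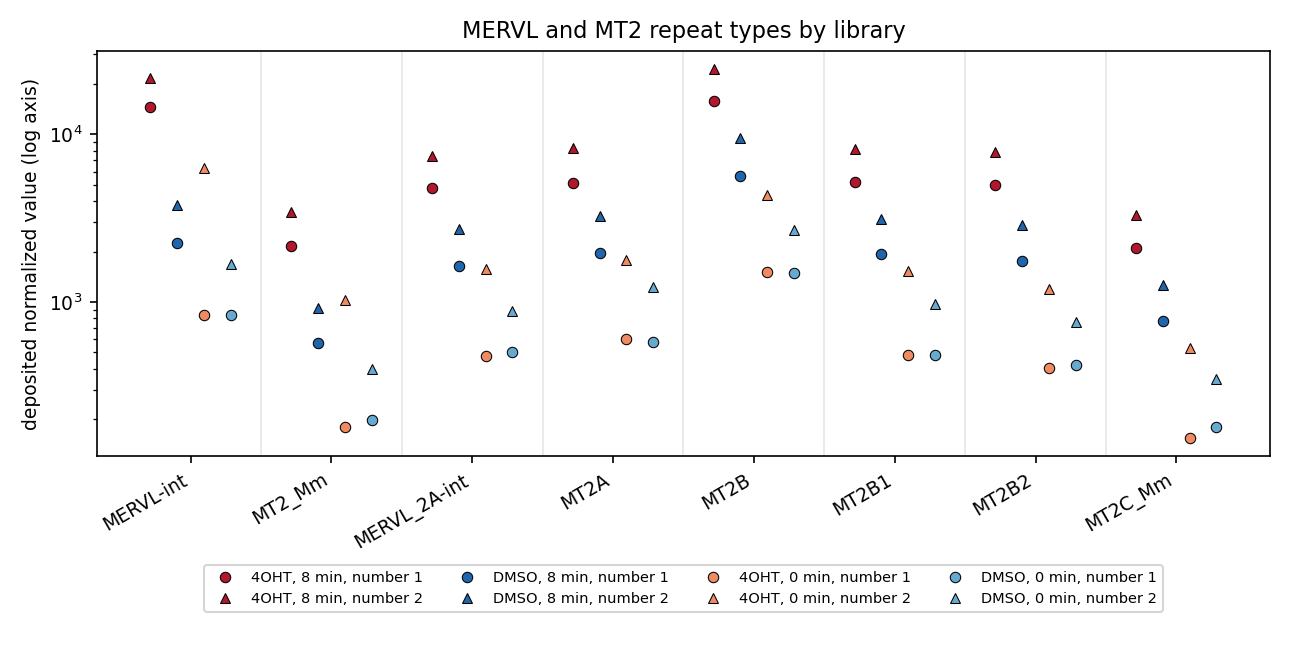
Deposited normalized values (log axis) of the 8 MERVL and MT2 types in each of the 8 libraries, 1 point per library, with colour for treatment and label time and shape for the column number. MERVL-int sits at 14555 and 21695 with 4OHT at 8 min, against 2248 and 3798 with DMSO, the widest gap of the 8 types.

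Measured against the other entries, MERVL-int and MT2_Mm differed and the 6 others did not pass the test. Relative to the median repeat type, the log2 fold change at 8 min was 1.18 for MERVL-int and 0.49 for MT2_Mm, and it lay between -0.06 and 0.07 for the 6 others. The 4 libraries of 8 min were also fitted alone after each was scaled to the median ratio over genes. The log2 fold change was then 1.14 for MERVL-int (SE 0.10, adjusted p = 3.6e-08 by limma), still the largest of 949 repeat types. The next in order was LTR108c_Mam at 0.77, with a mean value of 18.6 at 8 min (adjusted p = 0.0566 by limma). MT2_Mm came to 0.44 (SE 0.09, adjusted p = 0.00124), at place 31. Types of other families lay above MT2_Mm and were called higher too. Among them were ERVB4_1C-LTR_Mm (0.76, adjusted p = 3.6e-06 by limma), ERVB7_1-LTR_MM (0.69), and MMETn-int, RLTR13G and ETnERV-int (0.68 each). The 6 others came to -0.11 to 0.02 with adjusted p-values of at least 0.40 and up to 0.979. So 2 of 8 types were called higher in that fit and 0 lower, against 2.21% of repeat types called higher and 8.54% lower. edgeR on the recovered reads of these 4 libraries gave 1.14 (adjusted p = 9.12e-08) and 0.44 (adjusted p = 0.00195). With all 8 libraries in the scaled fit, where the spread at 0 min enters, MERVL-int was at 1.06 (adjusted p = 0.560) and MT2_Mm at 0.36 (adjusted p = 0.856), and 0 of 8 were called.

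**Figure D2:**
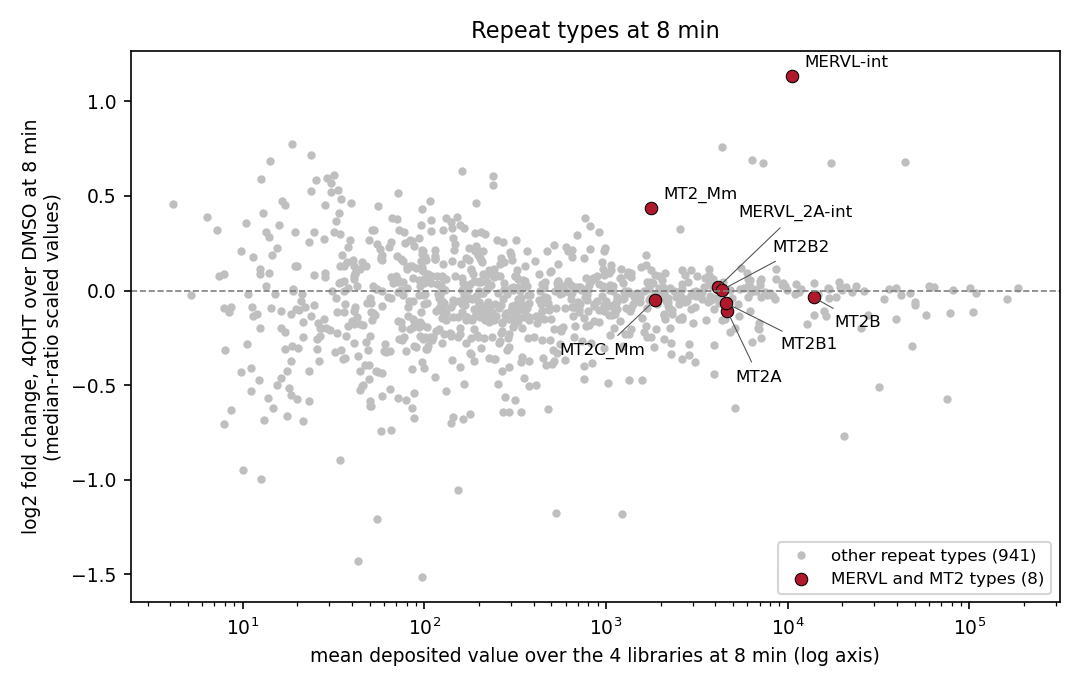
Log2 fold change at 8 min, 4OHT over DMSO, after scaling each of the 4 libraries to the median ratio over genes (vertical axis), against the mean deposited value at 8 min (log horizontal axis), 1 point per tested repeat type (949). MERVL-int lies at 1.14 above every other type and MT2_Mm at 0.44, and the 6 other MERVL and MT2 types lie between -0.11 and 0.02.

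A ratio of types within one library does not depend on how libraries are scaled. At 8 min, MERVL-int was 2.77 and 2.63 times the geometric mean of the 6 other types with 4OHT, against 1.18 and 1.21 times with DMSO. The spread within a group was far smaller than the gap, since the log2 ratio was 1.43 ± 0.05 with 4OHT and 0.26 ± 0.02 with DMSO (SD, n = 2 each). The difference was 1.18 on the log2 scale, or 2.26-fold, and 1.14 to 1.21 without any 1 of the 4 libraries. MT2_Mm was 0.411 and 0.415 times the geometric mean of the 6 with 4OHT, against 0.301 and 0.292 times with DMSO. That is a difference of 0.48 on the log2 scale, or 1.39-fold. MERVL-int also gained on its own LTR: it was 6.74 and 6.33 times the value of MT2_Mm with 4OHT, against 3.92 and 4.13 times with DMSO. The groups did not overlap in any of these 3 ratios. Each had an exact two-sided permutation p of 0.333, which is the smallest that 2 libraries against 2 can give. How many other repeat types separate from the 6 in this way was not counted, so the separation is no trait of MERVL-int and MT2_Mm. At 0 min MERVL-int was 1.72 and 4.20 times the 6 with 4OHT, against 1.67 and 1.76 times with DMSO. MT2_Mm was 0.372 and 0.684 times the 6 with 4OHT, against 0.394 and 0.419 times with DMSO. In both ratios 4OHT number 2 of 0 min was the highest of the 8 libraries and 4OHT number 1 lay at or near the DMSO libraries. Permuted within both times together, the exact two-sided p was 0.111 for MERVL-int over the 6, 0.167 for MT2_Mm over the 6 and 0.0556 for MERVL-int over MT2_Mm, where 0.0556 is the smallest possible.

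**Figure D3:**
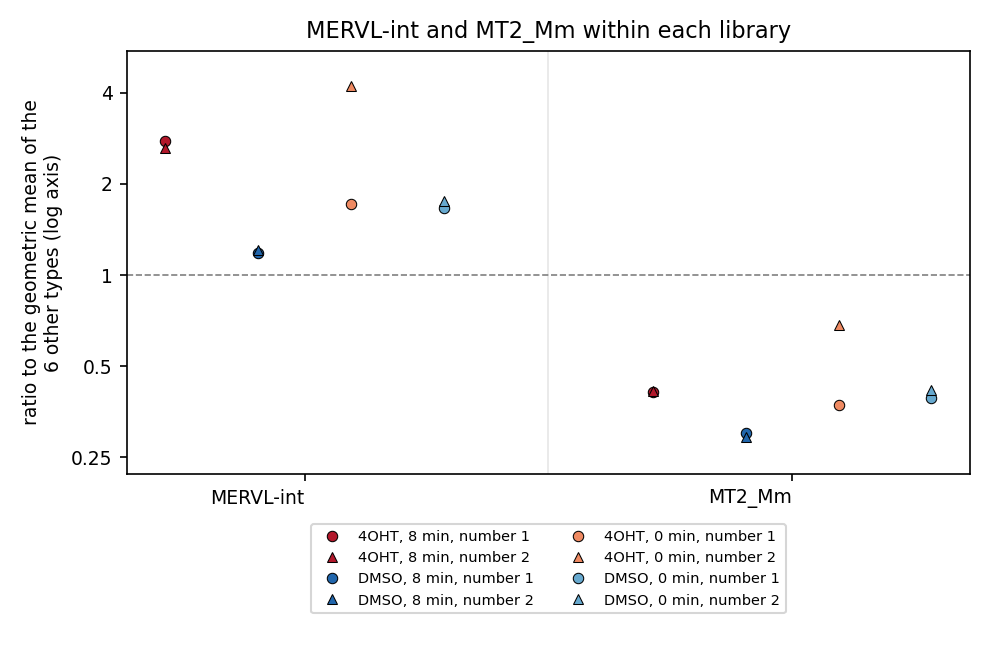
Ratio of MERVL-int and of MT2_Mm to the geometric mean of the 6 other MERVL and MT2 types (log axis), 1 point per library. With 4OHT at 8 min MERVL-int is at 2.77 and 2.63, against 1.18 and 1.21 with DMSO, and the 0 min 4OHT libraries are apart at 1.72 and 4.20.

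At 0 min none of the 8 types passed the test, and the 2 libraries with 4OHT disagreed. MERVL-int had 833.6 and 6343 with 4OHT, against 835.3 and 1682 with DMSO. MT2_Mm had 179.7 and 1031 with 4OHT, against 196.7 and 399.9 with DMSO. In both, the lower 4OHT library lay below both DMSO libraries and the higher one above them. The log2 fold changes were 0.96 for MERVL-int, 0.62 for MT2_Mm and 0.20 to 0.36 for the 6 others (adjusted p = 1 by limma for each), beside a median of 0.31 over repeat types. The share of repeat types called higher at 0 min was 0%, with 4 of 949 at an unadjusted p under 0.05. Without 4OHT number 2 of 0 min MERVL-int came to -0.51 and MT2_Mm to -0.64 (adjusted p = 1), and without 4OHT number 1 they came to 2.42 (adjusted p = 0.134) and 1.87 (adjusted p = 0.206). The 4OHT effect at 8 min minus that at 0 min was 1.65 for MERVL-int (adjusted p = 0.349) and 1.29 for MT2_Mm (adjusted p = 0.364), and 1.07 to 1.22 for the 6 others, beside 1.10 for the median repeat type. None of the 8 passed that test, in which 0% of repeat types and 0.363% of genes were called higher. Without 4OHT number 2 of 0 min the difference for MERVL-int was 3.11 (adjusted p = 0.0406), and without number 1 it was 0.19 (adjusted p = 0.951).

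From 0 to 8 min of label all 8 types were higher at 8 min in 4OHT cells, by log2 fold changes of 2.65 to 3.19, while 93.5% of repeat types were. MERVL-int was at 2.95 (adjusted p = 0.000198) and MT2_Mm at 2.66 (adjusted p = 7.88e-05), beside 2.53 for the median repeat type. In DMSO cells 5 of 8 types were higher, while 45.2% of repeat types were: MERVL_2A-int, MT2B, MT2B1, MT2B2 and MT2C_Mm, by 1.66 to 1.99. MERVL-int (1.30, adjusted p = 0.146), MT2_Mm (1.37, adjusted p = 0.0670) and MT2A (1.59, adjusted p = 0.0521) did not pass. The calls in DMSO cells depended on single libraries. Without DMSO number 1 of 0 min the types other than MERVL-int and MT2_Mm were at 1.04 to 1.56, beside 0.96 for the median repeat type. Without DMSO number 2 of 8 min they were at 1.22 to 1.63, beside 1.07. The LTR types MT2B2 and MT2C_Mm had the largest log2 changes with label time in both treatments, 3.17 and 3.19 with 4OHT and 1.99 and 1.97 with DMSO. With all libraries scaled to the median gene, 0 of 8 types were called with either treatment, where 8.01% of repeat types were higher with 4OHT and 11.6% with DMSO. Without 4OHT number 1 of 0 min, MERVL-int in 4OHT cells came to 1.49 (adjusted p = 0.0949) and MT2_Mm lost its call as well (adjusted p = 0.0724).

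The pattern of MERVL-int over the 8 libraries was nearest to that of MT2_Mm among 715 repeat types with a mean value of at least 50. The measure was the Euclidean distance of centred log2 values after median-ratio scaling, and it was 0.85 for MT2_Mm (Pearson r = 0.94, a description over 8 libraries that share their depth and scaling). Tigger6b, Kanga1, MER5C and RLTR13A followed at 1.09 to 1.20. MERVL_2A-int stood at place 79, and the MT2A, MT2B, MT2B1, MT2B2 and MT2C_Mm types at places 219 to 328. Among 10847 genes Srgap2 was nearest, at 0.45, followed by Lonp2, Fam124a, Lrrc28 and Foxo3 at up to 0.64. Srgap2 had values of 2142 and 3715 with 4OHT, against 425.0 and 811.3 with DMSO, at 8 min, and 167.4 and 1107 against 167.7 and 310.9 at 0 min, so that it shared the split of the 4OHT libraries at 0 min. The 3 types whose names start with ERVL, relatives of MERVL, all passed the test at 8 min, where 52.5% of repeat types did (log2 fold changes of 1.38 to 1.61, around the 1.42 of the median repeat type) and none did after the libraries of 8 min were scaled (-0.09 to 0.15, turning negative for ERVL-B4-int).

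Among genes known to be transcribed with MERVL in the 2-cell-like state, 18 of 30 listed reached a value of 10 in 2 libraries and were tested, and 17 of them were called higher with 4OHT at 8 min. Of the 18, 14 reached that value in no DMSO library, so they entered the test through the 4OHT libraries, and the list was drawn up with results of these data known. The count is therefore a description and is no support for a change of the list. Of the 4 that also reached it in a DMSO library, Arg2, Zfp750 and Gm20767 were called higher at 8 min, where 56.6% of genes were, and Arg2 and Zfp750 in the scaled fit of the 4 libraries, where 18.4% of genes were (the 4 were named after their values were seen). Ubtfl1, the one gene not called, had 2.12 and 0.988 with 4OHT, against 0.678 and 3.08 with DMSO, at 8 min. Zscan4d, of a family of zinc finger genes that marks the 2-cell-like state, had 110 and 184 with 4OHT, against 3.46 and 5.48 with DMSO, so that it was higher by 4.74 on the log2 scale (SE 0.64, limma adjusted p = 1.19e-09). Zscan4e, Zscan4b and Zscan4f were at 4.76, 4.48 and 4.29, and Gm5662 at 4.55. Reads of near-identical Zscan4 copies may be split or shared between them, so they do not count as separate genes. At 0 min 0 of the 18 passed, where 0% of genes did. Zscan4d had 0.256 and 25.8 with 4OHT, against 1.67 and 0.407 with DMSO, at 0 min, so that 4OHT number 2 was again the high library. The count at 8 min depended on single libraries, as it did for genes at large. With median-ratio scaling of all 8 libraries it was 0, where 0.00968% of genes were called higher.

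Of 6 tested activators of MERVL 4 were called higher at 8 min, where 56.6% of genes were, and 2 in the scaled fit of the 4 libraries, where 18.4% of genes were. Those 2 were Zscan4c (2.96, adjusted p = 3.4e-08) and Dppa4 (0.64, adjusted p = 0.000455), which acts with Dppa2 upstream of Dux. Zscan4c reached a value of 10 in no DMSO library, so it entered the test through the 4OHT libraries and its call is no support. Of the 5 activators that reached it in a DMSO library, 3 were called higher on the deposited values and 1 in the scaled fit. Duxf3, the Dux gene itself, was not tested, with values of 1.06 and 0.618 with 4OHT, against 0.204 and 0 with DMSO. Of 22 repressors 8 were called higher on the deposited values and 0 lower, where 56.6% of genes were higher. In the scaled fit, which moves all genes alike, 3 were called higher and 6 lower, where 18.4% of genes were higher and 16.7% lower. There Zmym2 (0.79, adjusted p = 8.18e-06) and Zfp809 (0.61, adjusted p = 0.000217), a zinc finger protein that recognises retroviral primer binding sites, were higher. Uhrf1, which brings the maintenance methyltransferase to DNA, is known for a part in silencing, and had 272 and 417 with 4OHT, against 189 and 268 with DMSO. Its log2 fold change in the scaled fit was -0.89 (adjusted p = 8.53e-06), and Trim28, the corepressor that zinc finger proteins recruit to retroelements, was at -0.37 (adjusted p = 0.00656). None of the 22 passed the test at 0 min, where 0% of genes did.

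Of the genes with a start window like that of Gm4340, 16 were in the table and 13 were tested. At 8 min 11 were called higher and 0 lower, where 56.6% of genes were called higher. In the scaled fit of the 4 libraries 8 were called higher and 1 lower (Sgk1, named after its values were seen), where 18.4% of genes were higher and 16.7% lower. Of the 13, 9 reached a value of 10 in no DMSO library, and the set was built on Gm4340 for its high values with 4OHT, so these counts follow in large part from the choice and are no support for the set. Of the 4 others, 2 were called higher on the deposited values and 0 in the scaled fit. Among the 9 were 6 copies on chromosome 10 whose windows share at least 269 runs of 20 bases with that of Gm4340, and how far the counting kept their reads apart was not tested. Gm4340 had 14.4 and 26.2 with 4OHT, against 0.204 and 0.267 with DMSO. Gm12724, on chromosome 4, had 23.0 and 34.1 with 4OHT, against 1.42 and 0.401 with DMSO, a log2 fold change of 2.85 in the scaled fit (adjusted p = 8.46e-05). Pemt, an enzyme of phosphatidylcholine synthesis, had 34.7 and 39.3 with 4OHT, against 5.15 and 11.6 with DMSO. Sp110, a nuclear body protein, had 26.7 and 44.2 with 4OHT, against 9.22 and 5.75 with DMSO. Pemt and Sp110 passed the test on the deposited values (adjusted p = 0.00838 and 0.00948) and not in the scaled fit (adjusted p = 0.0549 and 0.109). The values cover whole genes, some of which have other starts, so they do not show which start was used. How many of these genes were called higher depended on single libraries of 8 min, as it did for genes at large.

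**Figure D4:**
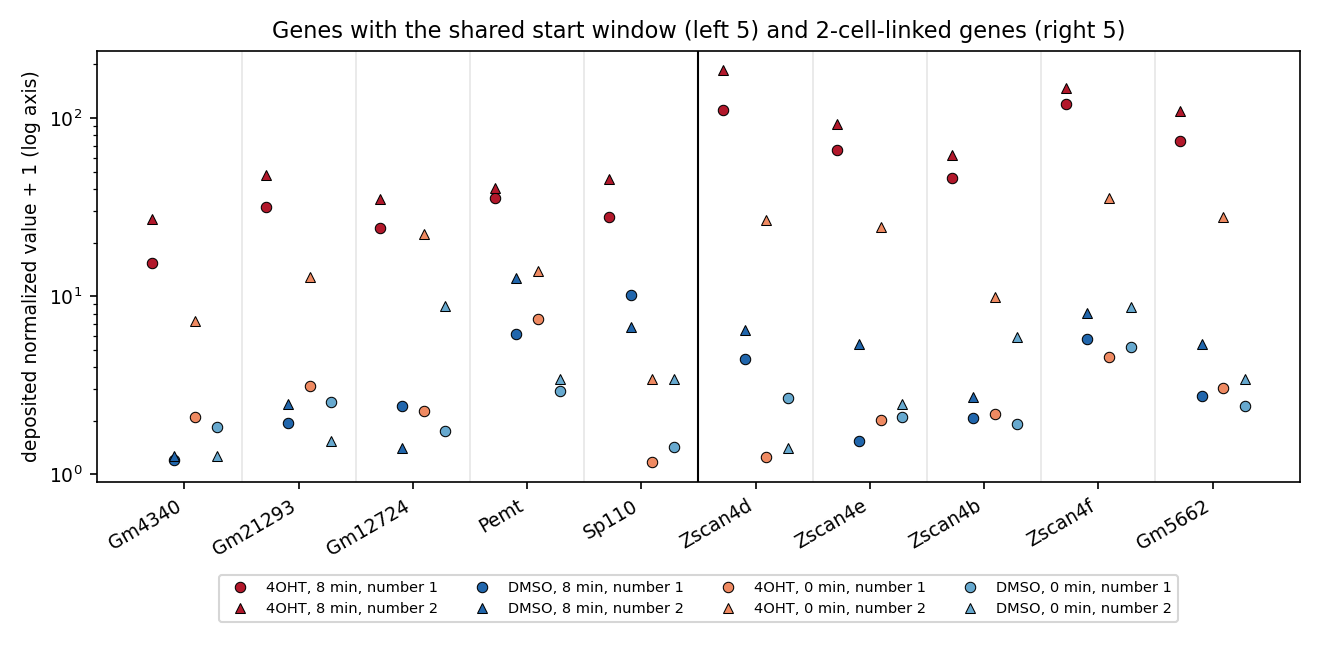
Deposited normalized value + 1 (log axis) in each library for 5 genes with the shared start window (left) and 5 genes of the 2-cell list (right), 1 point per library. The 8 min libraries with 4OHT lie above those with DMSO for each gene shown, for Zscan4d at 110 and 184 against 3.46 and 5.48 before 1 is added. This order follows in large part from the choice of genes. The right ones had the smallest p at 8 min, and the left set was built on Gm4340 for its high values with 4OHT. All but Pemt reached a value of 10 in no DMSO library.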

How the data were processed

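The submitters' processing notes list mm10 as the build and, as tools, Bowtie2, STAR 2.7 and bcl2fastq; the role of each, the strand and the placing of reads with several matches are not given in the sources used here. The authors deposited normalized signal values, which in each library were whole reads divided by 1 number (8.1 to 29.5); multiplied back, 99.995% to 100% of values came within 0.01 of a whole read. These divisors do not follow the read totals, and what they stand for is not given. Sums over repeat copies may hold reads of introns or of near-identical types.

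Entries with a value of at least 10 in at least 2 libraries (21652) were fitted as log2(value + 1), 1 mean per group, with a mean-variance trend in limma 3.58.1 (R 4.3.3), and tests were two-sided. Adjusted p-values are Benjamini-Hochberg over all entries, called at 0.05. The scaled fit took the 4 libraries of a label time after median-ratio scaling over genes. edgeR 4.0.16 and DESeq2 1.42.0 were run on the recovered read counts of the deposited table. The members, the gene lists and the start windows were chosen with earlier results of these data known. Named genes are at most 5 per list of smallest p at 8 min, the targeted gene, the ERVL-named types and the nearest patterns; the activators, repressors and start-window genes named beside others of their set were picked for their role. Deviations of same-numbered libraries had correlations over entries of 0.0205 to 0.481, a measure that leaves out a shift shared by all entries. The titles do not tie the numbers to samples, so the numbers were not read as pairs.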

Additional observations from a re-analysis of the deposited data

Results flagged for a closer look

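Among 18 tested genes of the 2-cell list, 2 differed between label times in their 4OHT effect, by the limma test of the difference itself. Of all genes 0.363% were called higher in that test, and the 2 are Zscan4 copies whose reads may be shared, so they do not count as separate genes. The log2 effect at 8 min exceeded that at 0 min by 4.01 for Zscan4b (adjusted p = 0.0225) and by 3.37 for Zscan4f (adjusted p = 0.0484). Both reached a value of 10 in no DMSO library, so they entered the test through the 4OHT libraries. The list was also drawn up with results of these data known. The 2 calls are therefore a description and are no support for a difference between label times. Zscan4b had 45.1 and 60.9 with 4OHT, against 1.09 and 1.74 with DMSO, at 8 min, and 1.19 and 8.95 with 4OHT, against 0.920 and 4.88 with DMSO, at 0 min. Zscan4f had 119 and 147 with 4OHT, against 4.75 and 7.09 with DMSO, at 8 min, and 3.54 and 34.8 against 4.18 and 7.73 at 0 min. Once all libraries were scaled to their median gene, 0 of the 18 passed this test in limma (1 at an unadjusted p under 0.05), and the differences were 2.68 for Zscan4b (adjusted p = 0.795) and 2.10 for Zscan4f (adjusted p = 0.834). edgeR called 0 of the 18 as well, and 0% of genes were called in either of these fits.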

How the results depend on the processing

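At 8 min the direction of MERVL-int and MT2_Mm against DMSO was higher under every setting run, and whether they passed 0.05 depended on it. With pseudocount 5 or a minimum of 100, 5 of the 8 types were called higher, where 67.5% and 64.1% of repeat types were. With no filter 0 were (MERVL-int 2.60, adjusted p = 0.0698, and MT2_Mm 1.91, adjusted p = 0.0832), where 1.73% of repeat types were. Adjustment over repeat types alone also called 0 (2.60 and 1.91, adjusted p = 0.0529 for both), where 0% of repeat types were called. Leaving out 1 library gave 2.23 to 2.98 for MERVL-int and 1.57 to 2.25 for MT2_Mm, and which types passed depended on the library left out.

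Settings that rescale all 8 libraries called 0 types at 8 min, where 0% of repeat types were called higher, or 0.527% in DESeq2. MERVL-int and MT2_Mm were at 1.06 and 0.36 with median-ratio scaling (adjusted p = 0.560 and 0.856), 1.24 and 0.55 centred on the median repeat type (0.357 and 0.719), 1.26 and 0.57 scaled by spike-in reads (1 and 1), 1.14 and 0.44 in edgeR (0.513 and 0.838), and 1.07 and 0.37 in DESeq2 (0.333 and 0.860). The 6 others turned negative in part. With median-ratio scaling MERVL_2A-int was at -0.063, MT2A -0.19, MT2B -0.12, MT2B1 -0.15, MT2B2 -0.075 and MT2C_Mm -0.13, beside -0.17 for ERVL-B4-int, -0.078 for ERVL-int and -0.61 for Ythdc1. In DESeq2 the same order gave -0.048, -0.17, -0.10, -0.13, -0.060 and -0.12, with -0.15 for ERVL-B4-int, -0.064 for ERVL-int and -0.60 for Ythdc1. In edgeR MT2A was at -0.11, MT2B -0.034, MT2B1 -0.065, MT2C_Mm -0.049, ERVL-B4-int -0.082 and Ythdc1 -0.53. Fitted to the 4 libraries of 8 min, median-ratio scaling gave MT2A -0.11, MT2B -0.037, MT2B1 -0.068, MT2C_Mm -0.052, ERVL-B4-int -0.086 and Ythdc1 -0.53, and edgeR gave -0.11, -0.034, -0.065, -0.049, -0.082 and -0.53. Ythdc1 was at -0.43 centred on the median repeat type and -0.41 by spike-in reads.

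With the column number as a replicate block, 8 types were called at 8 min, where 94.8% of repeat types were called higher. For 8 against 0 min in DMSO cells 8 were called, where 79% of repeat types were. For the difference of effects 1 was called (MERVL-int, 1.65, adjusted p = 0.0478), where 18.1% of repeat types and 30.3% of genes were. In the deposited values number 2 lay above number 1 in every group for each of the 8 types, and the block takes up such a shared shift. The titles do not tie these numbers to samples, so whether they mark a batch was not tested. Block and median-ratio scaling together, a setting chosen after the data were seen, left each estimate as with scaling alone (MERVL-int 1.06, MT2_Mm 0.36, Ythdc1 -0.61). This setting called 0 types at 8 min, 2 with label time in 4OHT cells and 2 in DMSO cells. The shares of repeat types called higher in it were 0%, 12.5% and 18.1%.

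For 8 against 0 min in 4OHT cells, 0 types were called with median-ratio scaling, edgeR or DESeq2, where 8.01%, 7.9% and 9.91% of repeat types were higher. When centred 3 were called, where 13% of repeat types were higher. MT2_Mm there was at -0.0071 in edgeR and -0.041 in DESeq2. In DMSO cells 0 were called with no filter, median-ratio scaling or edgeR, where 17.6%, 11.6% and 10.5% of repeat types were higher. There 1 was called in DESeq2 (14.5% of repeat types), 3 centred (11.8%) and 8 by spike-in reads (52.1%), and the calls depended on single libraries. MERVL-int there was at -0.14 centred, -0.031 in edgeR and -0.0036 in DESeq2, and MT2_Mm at -0.072 centred. The difference of effects for MT2_Mm was -0.041 in edgeR and -0.10 in DESeq2, and 0 or 1 types were called in it without 1 library. At 0 min MERVL-int ranged from -0.51 to 2.42 and MT2_Mm from -0.64 to 1.87 without 1 library, and MT2_Mm over the 6 other types from -0.13 to 0.75. For the 2-cell list the count at 8 min was 26 with no filter, where 14.8% of genes were called higher. With a minimum of 100, which only Zscan4d, Zscan4f and Zfp750 of the list reached in 2 libraries, it was 3 (71.1% of genes). It was 5 by spike-in reads (0.131% of genes), 7 in DESeq2 (1.33%) and 0 with median-ratio scaling, edgeR (0.00968% each) or centring (0%). For start-window genes it was 1 with a minimum of 100 or in DESeq2, 4 by spike-in reads and 0 with those 3 settings, beside the same shares. Both counts depended on single libraries as well. Of 1063 further values under these settings, 709 (some of them untouched by the setting) kept direction and side of the threshold, 230 lost their call, 27 gained one, 57 changed sign and 40 counts or medians moved. The cause was not tested. Spike-in reads of 30330 to 385228 per library limit that scaling.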
